A study of Mus musculus with 88 samples.

Results

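Igf2, Igf2r, Grb10 and Dlk1 are 4 imprinted genes that set growth before birth, and they are described here across mouse embryonic fibroblasts (MEFs) and embryonic stem cells (ESCs). They make up 4 of the 21942 loci in the RNA-seq table, and each name stood at 1 locus. The 4 genes were chosen from their own levels in these libraries, namely the levels in MEFs, in the fibroblasts labelled 2i MEF and in ESCs, and the levels in ESCs grown in serum. The comparisons of MEFs, 2i MEF and ESCs, and of 2i with serum in the C57BL6 cross, are therefore given as values with no test. Tests are kept to the other comparisons of media, sexes and crosses. In the MSM/Ms cross these include cultures in serum, so their p-values are not free of that choice.

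An imprinted gene is read mainly from the copy inherited from one parent. DNA methylation laid down in the egg or the sperm marks the copies differently at a control region. Igf2 encodes the secreted insulin-like growth factor 2 and is read from the paternal copy in most fetal tissues. Igf2r encodes the receptor that takes IGF2 up into lysosomes for breakdown, and Grb10 encodes an adaptor that restrains signalling from the insulin and IGF1 receptors. Both are read from the maternal copy in most mouse tissues. Dlk1 encodes a membrane protein related to the ligands of Notch that holds back adipocyte differentiation, and it is read from the paternal copy.

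The series compared ESCs derived and grown in different media, and 26 of its 88 samples were RNA-seq libraries. All mice were F1 hybrids with a 129X1/SvJ parent. In the MSM cross the other parent strain was MSM/Ms, and its 10 libraries were 1 of 2i MEF (line 15, XX), 2 of MEF (numbers 2 and 4), 1 of 2i-S ESC (line 15, XX), 4 of 2i ESC (XX lines 15 and 2, XY lines 20 and 23) and 2 of S ESC (XX line 8 and XY line 12). In the B6 cross the other parent strain was C57BL6, and its 16 ESC libraries were 2 XX and 2 XY lines in each of a2i, t2i, 2i and serum. The 2i medium holds inhibitors of MEK and of GSK3. As known of the study, t2i holds less of the MEK inhibitor, a2i replaces it with a Src inhibitor, S is serum with the cytokine LIF, and 2i-S is a 2i line moved to serum. Per the labels, the ESC lines were at passage 3, the 2i-S culture had a further 14 passages, the MEFs were at passage 1 and the 2i MEF was at passage 5 with 1 more, so passage cannot be told apart from origin or from medium history. The 2i MEF shares its line number with a 2i ESC line, and it rests on 1 library. For each MEF library the title and the description disagree on sex, so none was used. Nothing states that the lines of a group came from separate embryos, so p-values measure the spread between these libraries.

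The levels are in RPKM, reads scaled to transcript length and to library size. Library totals ran from 624274 to 934309 RPKM, with 11234 to 12558 genes at 1 RPKM or more. Absolute depth is unknown, and relative depth read from the steps between low values ran from 0.771 to 1.87. All 8 pluripotency markers reached 1 RPKM in every ESC library, and all 24 fibroblast markers did in the 2i MEF and in both MEFs. Fibroblast markers also stood out in some ESC libraries: their sum ran from 6.91 to 20.6 RPKM in the 12 serum-free B6 libraries, against 1380 to 1881 RPKM in the 4 serum libraries of that cross. The Y-linked and mitochondrial loci, 196 in all, read 0 in every MSM-cross library.

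The promoters below are shown because the study is about DNA methylation, which in mammals falls mostly on the letters CG. They are RefSeq promoters of GRCm38.p6, from 250 bases before to 50 bases after a start, read along the gene's strand, and every CG is in capitals. Where a gene had several, the promoter with the most CGs is printed (Igf2 had 4 promoters, Grb10 had 2, Igf2r and Dlk1 had 1 each).
Igf2: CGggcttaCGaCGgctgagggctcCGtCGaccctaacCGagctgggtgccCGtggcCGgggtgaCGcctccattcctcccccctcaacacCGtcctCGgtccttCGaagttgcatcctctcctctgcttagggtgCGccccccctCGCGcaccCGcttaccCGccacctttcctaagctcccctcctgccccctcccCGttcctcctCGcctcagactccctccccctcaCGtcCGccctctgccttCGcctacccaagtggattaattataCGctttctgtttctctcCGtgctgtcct
Igf2r: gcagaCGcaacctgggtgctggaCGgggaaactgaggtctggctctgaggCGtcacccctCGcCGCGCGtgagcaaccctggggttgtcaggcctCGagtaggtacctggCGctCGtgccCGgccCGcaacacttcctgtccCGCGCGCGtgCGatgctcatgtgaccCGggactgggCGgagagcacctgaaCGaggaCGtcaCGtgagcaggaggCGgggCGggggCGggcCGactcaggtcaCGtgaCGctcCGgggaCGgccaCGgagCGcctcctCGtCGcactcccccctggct
Grb10: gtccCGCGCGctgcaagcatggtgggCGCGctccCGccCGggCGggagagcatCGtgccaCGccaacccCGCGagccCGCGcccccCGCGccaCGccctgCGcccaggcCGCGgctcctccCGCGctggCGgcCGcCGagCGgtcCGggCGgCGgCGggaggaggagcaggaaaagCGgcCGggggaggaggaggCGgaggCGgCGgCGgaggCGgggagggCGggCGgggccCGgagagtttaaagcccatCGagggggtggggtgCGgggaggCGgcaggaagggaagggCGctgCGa
Dlk1: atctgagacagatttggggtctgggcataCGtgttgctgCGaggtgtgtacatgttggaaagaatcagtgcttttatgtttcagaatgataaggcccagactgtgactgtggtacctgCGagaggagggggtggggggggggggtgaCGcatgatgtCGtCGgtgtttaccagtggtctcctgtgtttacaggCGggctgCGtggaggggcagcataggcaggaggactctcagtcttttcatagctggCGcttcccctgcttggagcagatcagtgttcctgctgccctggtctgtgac
The printed Igf2 promoter lay at chr7:142658755-142659054 on the minus strand and held 24 CGs, a number that 20.0% of the 32851 RefSeq promoters reached. The Igf2r promoter, at chr17:12769657-12769956 on the minus strand, held 34 CGs (reached by 7.73%). The Grb10 promoter, at chr11:12037371-12037670 on the minus strand, held 45 CGs (reached by 1.93%). The Dlk1 promoter, at chr12:109452573-109452872 on the plus strand, held 9 CGs, which 45.8% of promoters reached. The promoters not printed held 2, 14 and 7 CGs for Igf2 and 9 CGs for Grb10, so the order above belongs to the printed ones. The CG was searched as these 2 letters, which read the same on both strands. The methylation of these sites was not analysed here, and no link between CGs and the levels of the genes was tested. Whether the printed stretches hold a control region of imprinting was not examined.

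The 4 loci lay in mm10 at chr7:142650765-142666816 (Igf2, ENSMUSG00000048583.16), chr17:12682405-12769664 (Igf2r, ENSMUSG00000023830.13), chr11:11930507-12038683 (Grb10, ENSMUSG00000020176.17) and chr12:109452822-109463336 (Dlk1, ENSMUSG00000040856.17). H19, Airn and Meg3, noncoding RNAs of 3 of these imprinted domains, were not analysed here. Airn runs antisense through Igf2r, and the labels and notes do not say whether the authors counted by strand, so reads of that overlap may be shared.

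**Figure D1:**
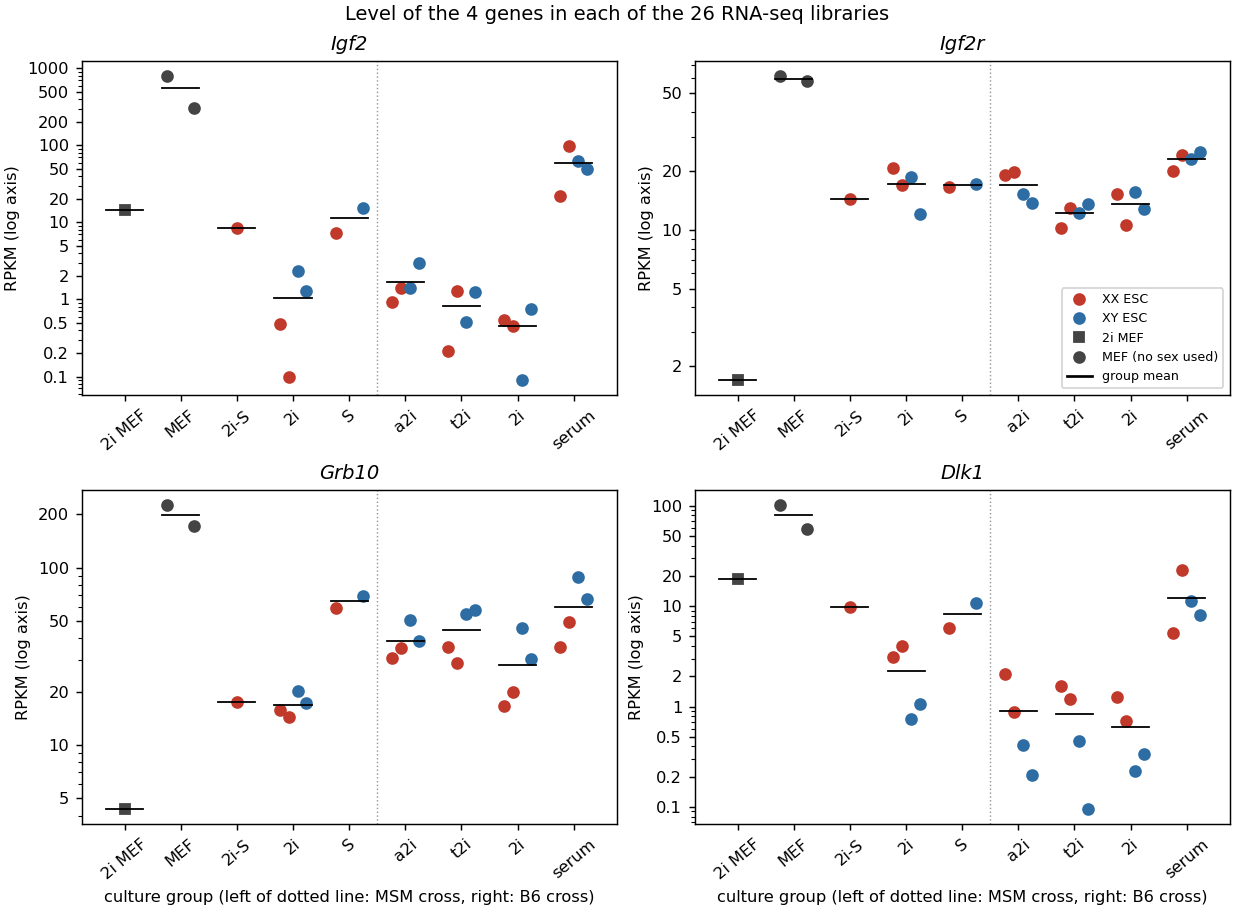
Level of each gene in RPKM (log axis) in all 26 libraries, with 1 point per library and a bar for the group mean; the dotted line parts the MSM cross (left) from the B6 cross (right). MEF libraries are highest for all 4 genes, the 2i MEF is lowest for Igf2r and Grb10, and serum libraries are the highest B6 ESCs for Igf2 and Dlk1.

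In MEFs the growth factor gene Igf2 was the most abundant of the 4 and among ESCs in 2i it was nearly silent. Igf2 stood at 14.4 RPKM in the 2i MEF, against 792 and 309 RPKM in the 2 MEFs, so the 2i MEF held 2.62% of the MEF mean. The MEFs themselves differed by more than 2-fold, MEF 2 being the higher, and the 2i MEF lay far below both. In bulk libraries, fewer cells that express a gene and less RNA per cell cannot be told apart. Among the 23 ESC libraries Igf2 ran from 0.0911 to 99.6 RPKM with a median of 1.3 RPKM, so the 2i MEF lay inside the ESC range. Only the B6 serum lines and S line 12 (15.3 RPKM) exceeded the 2i MEF. The ESC lines in 2i, t2i and a2i were at or below 3.00 RPKM. The order of the group means was MEF (551 RPKM), B6 serum (58.5), 2i MEF (14.4), S (11.3), 2i-S (8.44), a2i (1.69), MSM 2i (1.06), t2i (0.816) and B6 2i (0.458). MEF and serum did not overlap. The 2i MEF and 2i-S values lay within the range of the S lines (7.34 to 15.3 RPKM), and neighbours from a2i down overlapped, so those places in the order are not set beyond the spread.

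Igf2r, the receptor that clears IGF2, varied least among ESCs and was the gene for which the 2i MEF stood furthest outside them. It stood at 1.71 RPKM in the 2i MEF, against 61.1 and 57.7 RPKM in the MEFs, which is 2.87% of the MEF mean. The 23 ESC libraries ran from 10.3 to 25.1 RPKM with a median of 15.5 RPKM, all above the 2i MEF and all below the MEFs. By group mean the order was MEF (59.4 RPKM), B6 serum (23.1), MSM 2i (17.1), a2i (17.0), S (16.9), 2i-S (14.4), B6 2i (13.5), t2i (12.2) and 2i MEF (1.71). MEF at the top and the 2i MEF at the bottom were clear of their neighbours, and the 2i-S library lay below both S lines (16.7 and 17.1 RPKM). The other neighbouring groups overlapped.

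Grb10, the adaptor of the insulin and IGF1 receptors, showed the same gap between the fibroblasts, from an ESC level that was well above silence. It stood at 4.38 RPKM in the 2i MEF, against 225 and 172 RPKM in the MEFs, or 2.21% of the MEF mean. The ESC libraries ran from 14.4 to 88.1 RPKM with a median of 35.7 RPKM, so the 2i MEF lay below every ESC library as well. The group means fell in the order MEF (198 RPKM), S (64.4), B6 serum (60.0), t2i (44.2), a2i (38.8), B6 2i (28.2), 2i-S (17.4), MSM 2i (16.8) and 2i MEF (4.38). MEF and the 2i MEF were clear of their neighbours, S lay within the serum range (35.7 to 88.1 RPKM), serum to B6 2i overlapped in turn, and 2i-S lay within the MSM 2i range (14.4 to 20.1 RPKM).

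Dlk1, the Notch-related protein, was lower in the 2i MEF too, but by less. It stood at 18.5 RPKM in the 2i MEF, against 101 and 59.1 RPKM in the MEFs, or 23.0% of the MEF mean. The ESC libraries ran from 0.0962 to 22.8 RPKM with a median of 1.25 RPKM, and 1 of them, B6 serum XX line 46, exceeded the 2i MEF. The group means fell in the order MEF (80.1 RPKM), 2i MEF (18.5), B6 serum (11.9), 2i-S (9.71), S (8.36), MSM 2i (2.23), a2i (0.897), t2i (0.840) and B6 2i (0.632). MEF was clear of the rest and S of MSM 2i, whereas the 2i MEF lay within the serum range (5.44 to 22.8 RPKM), 2i-S lay within the S range (6.09 to 10.6 RPKM) and the B6 serum-free groups overlapped.

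On the scale used for differences, log2(RPKM + 1), the 2i MEF minus the MEF mean came to -5.01 for Igf2, -4.48 for Igf2r, -5.20 for Grb10 and -2.01 for Dlk1. Such differences understate the change of genes near 1 RPKM, and with 1 library on one side there is no replicate check. All 4 were lower by at least 1 log2 unit, as were 3.15% of the 13443 genes kept, while 2.25% were higher by that much; the genes were chosen on this contrast, so the share says nothing more about them. Of all genes kept, 4 were as low as Igf2r or lower: Grb10, Igf2, Igf2r and S100a7a, a calcium-binding protein gene. S100a7a, named after its values were seen, stood at 0.172 RPKM in the 2i MEF, against 26.8 and 81.6 RPKM in the MEFs. Taking MEF 2 or MEF 4 alone as the comparison gave -5.68 and -4.33 for Igf2, and -2.39 and -1.63 for Dlk1, so their size depended on which MEF was used. Of the 8 pluripotency markers Klf4 alone reached 1 RPKM in these fibroblasts, at 26.9 RPKM in the 2i MEF against a MEF mean of 101 RPKM. The other 7 were each below 1 RPKM, and 6 of them were higher in the 2i MEF than the MEF mean. Its fibroblast level, the median over 23 fibroblast genes of the ratio to the MEF mean, was 150%. The fibroblast genes were thus not low in the 2i MEF with the 4 genes.

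**Figure D2:**
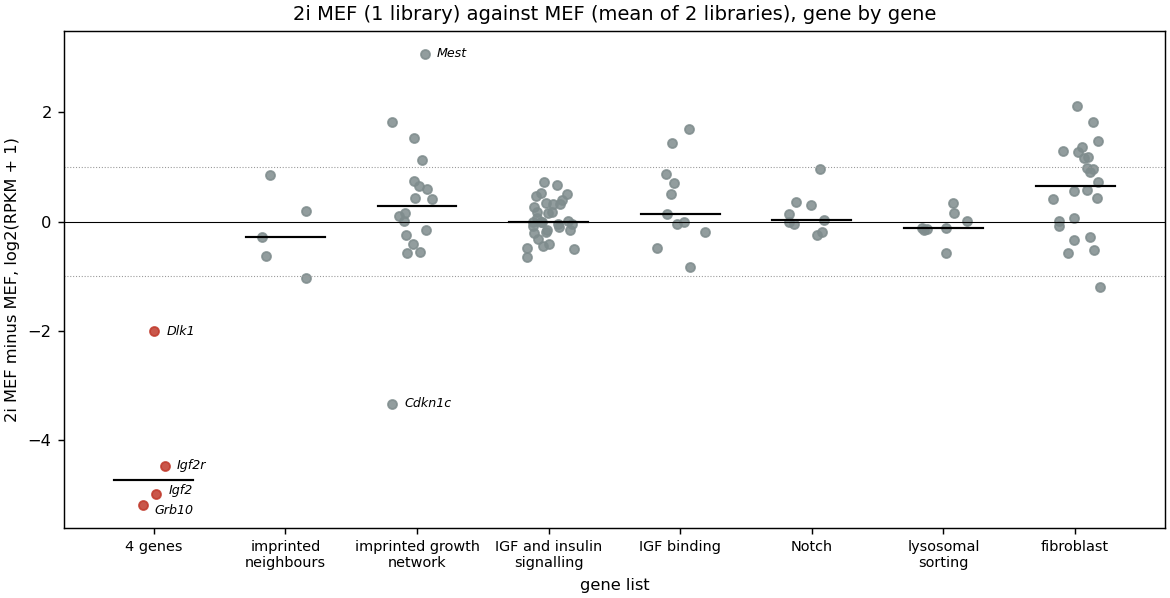
Difference 2i MEF minus MEF on the log2(RPKM + 1) scale for the 4 genes (red) and for genes of other lists (grey), with the list median as a bar and dotted lines at 1 log2 unit either way. The 4 genes lie between -2.01 and -5.20, where of the listed genes Cdkn1c alone joins them, and Mest is highest at 3.08.

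Other imprinted genes did not move as a block in the 2i MEF. In a list of imprinted genes tied to growth, 18 passed the filter, of which 4 were higher and 1 was lower by at least 1 log2 unit, with a median of 0.28 against -0.03 for all genes. The lower one was Cdkn1c, an inhibitor of the cell cycle read from the maternal copy, with 1.16 RPKM in the 2i MEF, against 38.6 and 11.1 RPKM in the MEFs. Mest, a paternally read gene, stood at 91.5 RPKM in the 2i MEF, against 12.8 and 7.69 RPKM in the MEFs. Slc38a4, an amino acid transporter gene, stood at 63.2 RPKM in the 2i MEF, against 28.2 and 10.3 RPKM in the MEFs. Plagl1, a zinc finger factor gene, stood at 50.3 RPKM in the 2i MEF, against 33.4 and 8.18 RPKM in the MEFs. The fourth was Sgce, with 60.2 RPKM in the 2i MEF, against 23.8 and 30.6 RPKM in the MEFs. Thus 9 of the 16 that reached 1 RPKM in a MEF library lay above both MEFs, 4 lay below both and 3 lay between.

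Genes next to the 4 loci were mostly low or unlike them. Of the listed neighbours 6 reached 1 RPKM in at least 1 library, and Ins2, next to Igf2, read 0 in all 26. Tnfrsf23, beyond the Igf2 domain on chromosome 7, was lower in the 2i MEF with 8.64 RPKM, against 16.8 and 20.8 RPKM in the MEFs. Beside Grb10, Ddc stood at 4.52 RPKM in the 2i MEF, against 6.64 and 2.05 RPKM in the MEFs, and Cobl at 1.9 RPKM, against 3.41 and 3.55 RPKM. In the domain of Dlk1, Begain stood at 1.47 RPKM in the 2i MEF, against 1.62 and 2.45 RPKM, and Dio3 at 1.54 RPKM, against 0.853 and 0.0642 RPKM. Mas1, near Igf2r, read 0 in all 3 fibroblast libraries and reached 1.10 RPKM only in 2i-S. None of these values approached the gap seen at Igf2, Igf2r and Grb10.

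Partners of the 4 proteins were also compared between the fibroblasts. None of 32 IGF and insulin signalling genes, 9 Notch ligands and receptors or 8 lysosomal sorting genes differed by 1 log2 unit in the 2i MEF, a cut that few genes of the whole table passed either (the 3.15% lower and 2.25% higher given above). Among 11 IGF binding genes, 2 were higher, Igfbp4 at 79.5 RPKM in the 2i MEF against a MEF mean of 30.5 RPKM and Igfbp5 at 120 RPKM against 51.6 RPKM. Each depended on the MEF: Igfbp4 differed by 0.66 from MEF 2 and by 2.72 from MEF 4, and Igfbp5 differed by 2.26 from MEF 2 and by 0.60 from MEF 4. Both encode secreted proteins that hold IGFs outside the cell.

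MEF minus 2i ESC of the MSM cross was 7.50 for Igf2, 1.86 for Igf2r, 3.35 for Grb10 and 5.04 for Dlk1 on the same scale. The 4 MSM 2i lines held 0.484, 0.0972, 2.36 and 1.3 RPKM of Igf2 and 3.13, 3.99, 0.756 and 1.06 RPKM of Dlk1 (lines 15, 2, 20 and 23), far below either MEF. Their Igf2r levels were 20.7, 17.0, 18.7 and 12.0 RPKM and their Grb10 levels 15.7, 14.4, 20.1 and 17.2 RPKM, again below both MEFs. For the partner lists, tested with limma and called at an adjusted p under 0.05, 67.7% of all genes passed in this comparison. Of 32 IGF and insulin signalling genes 14 were higher and 9 lower in MEF, among them Igf1, the other IGF ligand gene, at 10.9 RPKM in MEF against 0.101 RPKM in 2i ESC. Of 11 IGF binding genes 5 were higher and 5 lower: Igfbp7 averaged 261 RPKM in MEF and 2.55 RPKM in 2i ESC, and Igfbp2 averaged 30.3 RPKM in MEF and 808 RPKM in 2i ESC. Of 9 Notch genes 3 were higher and 4 lower, and of 8 lysosomal sorting genes 1 was higher and 2 were lower. Over all genes tested 3848 were higher and 5253 lower in MEF, with a median of -0.24. The list medians were 0.35 for IGF and insulin signalling, 1.89 for IGF binding, -0.85 for Notch and -0.03 for lysosomal sorting.

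In the B6 cross the 4 genes were higher in serum than in 2i, and the serum libraries also held fibroblast RNA. Igf2 read 0.540 and 0.459 RPKM in the 2i XX lines c3 and c4 and 0.0911 and 0.742 RPKM in the XY lines c2 and c6, against 22 and 99.6 RPKM in the serum XX lines 17 and 46 and 63.3 and 49.0 RPKM in the XY lines 10 and 16. Dlk1, in the same order of lines, read 1.25, 0.711, 0.230 and 0.336 RPKM in 2i, against 5.44, 22.8, 11.3 and 8.23 RPKM in serum. For both genes every 2i line lay below every serum line, and serum line 46 was the highest library. The share of all genes whose groups lay apart was not counted, here or between the media below. Igf2r read 15.2, 10.6, 15.5 and 12.8 RPKM in 2i, against 20.0, 24.1, 23.0 and 25.1 RPKM in serum. Grb10 read 16.5, 19.9, 45.9 and 30.6 RPKM in 2i, against 35.7, 49.6, 88.1 and 66.5 RPKM in serum. Igf2r did not overlap between the media, whereas Grb10 did, because XY line c2 in 2i exceeded XX line 17 in serum. The differences 2i minus serum were -5.18 for Igf2, -0.73 for Igf2r, -1.09 for Grb10 and -2.86 for Dlk1.

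The fibroblast level was 0.00871% to 0.0379% of the MEF mean in the 12 serum-free B6 libraries, against 8.73% (line 17), 13.4% (line 46), 11.2% (line 10) and 14.7% (line 16) in serum. Igf2 stood at 3.99%, 18.1%, 11.5% and 8.89% of its own MEF mean in those 4 serum lines, and Dlk1 at 6.79%, 28.5%, 14.1% and 10.3%. For both genes lines 17 and 16 were below and lines 46 and 10 above the fibroblast level, and line 46 lay above it by the widest margin. Igf2r stood at 33.7%, 40.5%, 38.7% and 42.3%, and Grb10 at 18%, 25%, 44.4% and 33.5%, so these genes were above the fibroblast level in every serum line. All 24 fibroblast markers reached 1 RPKM in each serum library and all 24 were lower in 2i at an adjusted p under 0.05 in limma's test, where 47.6% of all genes passed. Of 9 primitive endoderm markers tested 7 were also lower in 2i, among them Pdgfra, which is in the fibroblast list too. Without Pdgfra the sum of the listed markers was 130 to 311 RPKM in the serum-free libraries, against 490 to 802 RPKM in serum. The 2i MEF held 3428 RPKM of these markers and the MEFs 2388 and 2411 RPKM. Sparc alone averaged 261 RPKM in B6 2i, 374 RPKM in serum and 1704 RPKM in MEF. The sum is therefore not separate from fibroblast RNA. Of 8 trophectoderm markers 5 were lower in 2i, among them Krt18 (7.45 RPKM in 2i, 65.5 RPKM in serum) and Krt8 (10.3 RPKM in 2i, 51.6 RPKM in serum). Their sum was 49.5 to 77.7 RPKM in the serum-free libraries, against 98.8 to 208 RPKM in serum. Both mesoderm and muscle genes tested, T and Des, were also lower in 2i. The part of these other cell types in the levels of the 4 genes was not tested.

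When each library's fibroblast level times the MEF mean was subtracted, 2i minus serum shrank to -1.10 for Igf2, -0.23 for Igf2r, -0.29 for Grb10 and -0.71 for Dlk1. For Igf2 the amount ascribed to fibroblasts was 61.9 of 63.3 RPKM in line 10 and 73.8 of 99.6 RPKM in line 46. In lines 17 and 16 it exceeded the measured level, and these lines were taken as having no Igf2 left. The remainder was 1.38 RPKM in line 10 and 25.9 RPKM in line 46, so the Igf2 difference left rested mostly on line 46. For Igf2r the amount ascribed to fibroblasts was 5.19 to 8.72 RPKM of 20.0 to 25.1 RPKM. The Igf2 remainder turned on which MEF gave the profile, since 2i minus serum came to -0.52 with MEF 2 and to -3.04 with MEF 4, alternatives that were added after the data were seen. For Dlk1 the same choice gave -0.26 and -1.11, and for Grb10 -0.28 and -0.43. The subtraction assumes that the fibroblasts in serum had the RNA of these MEFs, which was not tested.

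**Figure D3:**
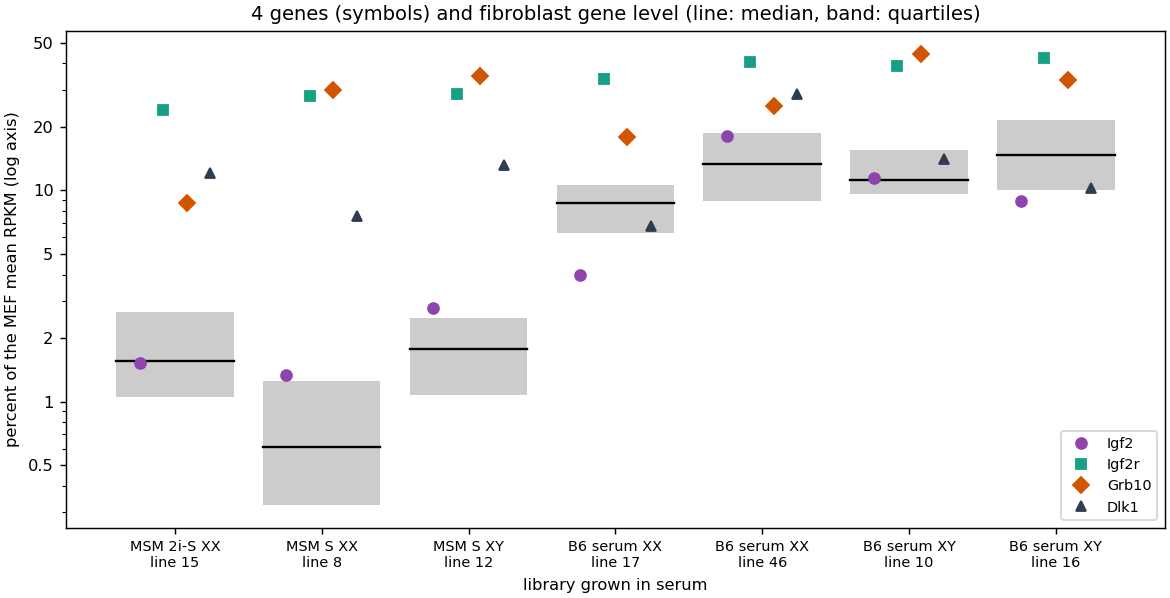
Each gene as a percent of its MEF mean (symbols, log axis) in the 7 ESC libraries grown in serum, beside the fibroblast level of that library (line for the median, band for the quartiles over 23 genes). Igf2r and Grb10 lie above the band in all 7, while Igf2 lies in or below the band in all 4 B6 serum lines and in 2i-S.

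Among partners of the 4 genes, calls between 2i and serum differed by list. Over all genes tested 4042 were lower and 2215 higher in 2i. Of 30 IGF and insulin signalling genes 15 were lower and 1 was higher, of 11 IGF binding genes 6 were lower and 2 higher, and of 8 Notch genes 6 were lower. Of 8 lysosomal sorting genes 2 were higher and 2 lower. Igfbp7 averaged 0.998 RPKM in 2i and 129 RPKM in serum (log2 difference -6.06, SE 0.12, adjusted p = 1.31e-12 in limma), and Grb14, a relative of Grb10, averaged 0.740 RPKM in 2i and 8.28 RPKM in serum. Grb7, the other adaptor of that family, averaged 8.68 RPKM in 2i and 28.9 RPKM in serum. In MEF, Igfbp7 averaged 261 RPKM and Grb14 15.1 RPKM. How much of these differences the fibroblast RNA accounted for was not tested gene by gene. Plagl1, by contrast, averaged 51.7 RPKM in 2i and 6.12 RPKM in serum.

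Fibroblast markers were near 0 in the serum-free media of the B6 cross. A gene not called between these media was not thereby shown to be unchanged. Of the 4 genes only Grb10 was called there, and its calls turned on single lines. It read 35.8 and 29.0 RPKM in the t2i XX lines t1 and t3 and 54.4 and 57.6 RPKM in the XY lines t2 and t6, against the 2i values of 16.5 to 45.9 RPKM given above. Each t2i group lay above the 2i group of the same sex, although the media overlapped across sexes. Grb10 rose by 0.68 (SE 0.16, adjusted p = 0.0195, limma with 4 lines a medium) in t2i against 2i, and it was the only one of the 4 genes to pass, where 8.08% of 13150 genes did. In a2i it read 35.2 and 30.7 RPKM in XX lines a4 and a18 and 50.7 and 38.4 RPKM in XY lines a1 and a3. Again XX lines lay above 2i XX lines, while XY line a3 lay below 2i XY line c2. Grb10 rose by 0.53 (SE 0.16, adjusted p = 0.0423) in a2i against 2i, again as the only one of the 4, where 13.8% of genes passed. The a2i call was lost when line c3, c4, c6, a4, a18 or a1 was left out (difference 0.38 to 0.59, adjusted p up to 0.16), and the t2i call when line c3, c6, t1, t2 or t6 was (0.54 to 0.70, adjusted p up to 0.0775). Its relative Grb7 rose in both media: it averaged 26.1 RPKM in a2i and 18 RPKM in t2i, against 8.68 RPKM in 2i (adjusted p = 5.73e-07 and 4.19e-05). It was the only called gene of 30 in the IGF and insulin signalling list in t2i, and in a2i Pik3r3 was also called, at a lower level. In the imprinted growth list 6 of 19 rose and 3 fell in a2i, and 3 rose and 2 fell in t2i. Cdkn1c averaged 5.54 RPKM in a2i and 6.91 RPKM in t2i, against 2.23 RPKM in 2i, and Plagl1 averaged 15.7 RPKM in a2i and 17.9 RPKM in t2i, against 51.7 RPKM in 2i.

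Igf2 stayed at or below 3.00 RPKM in all 12 serum-free B6 libraries. It read 1.40, 0.936, 1.42 and 3.00 RPKM in a2i (lines a4, a18, a1 and a3) and 0.212, 1.28, 0.505 and 1.26 RPKM in t2i (lines t1, t3, t2 and t6). Every a2i line lay above every 2i line, while t2i overlapped both. The share of all genes apart in this way was not counted. The difference a2i minus 2i was 0.85 (95% interval 0.02 to 1.68, adjusted p = 0.17), so it did not pass. Near 1 RPKM the pseudocount compresses such differences, and a2i averaged 3.69 times the 2i mean in RPKM. Fitting only the a2i and 2i libraries gave the same difference with an adjusted p of 0.0343.

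Igf2r read 19.9, 19.1, 15.3 and 13.7 RPKM in a2i and 10.3, 13.0, 12.2 and 13.6 RPKM in t2i, in the same orders of lines. The a2i lines lay above the t2i lines with no overlap, a separation whose share over all genes was not counted. Yet a2i minus t2i, at 0.43 (95% interval 0.16 to 0.70, adjusted p = 0.118 in limma), did not pass in a comparison where 1.0% of genes did. Against 2i the differences were 0.31 (adjusted p = 0.127) in a2i and -0.13 (adjusted p = 0.6) in t2i. Without 2i XX line c3 the a2i difference was 0.43 with an adjusted p of 0.0449. Dlk1 differed by no more than 0.16 between any pair of these media, with 95% intervals that reached 0.85, so changes inside those intervals were not detectable. Grb10 in a2i minus t2i was -0.15 (95% interval -0.49 to 0.19).

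**Figure D4:**
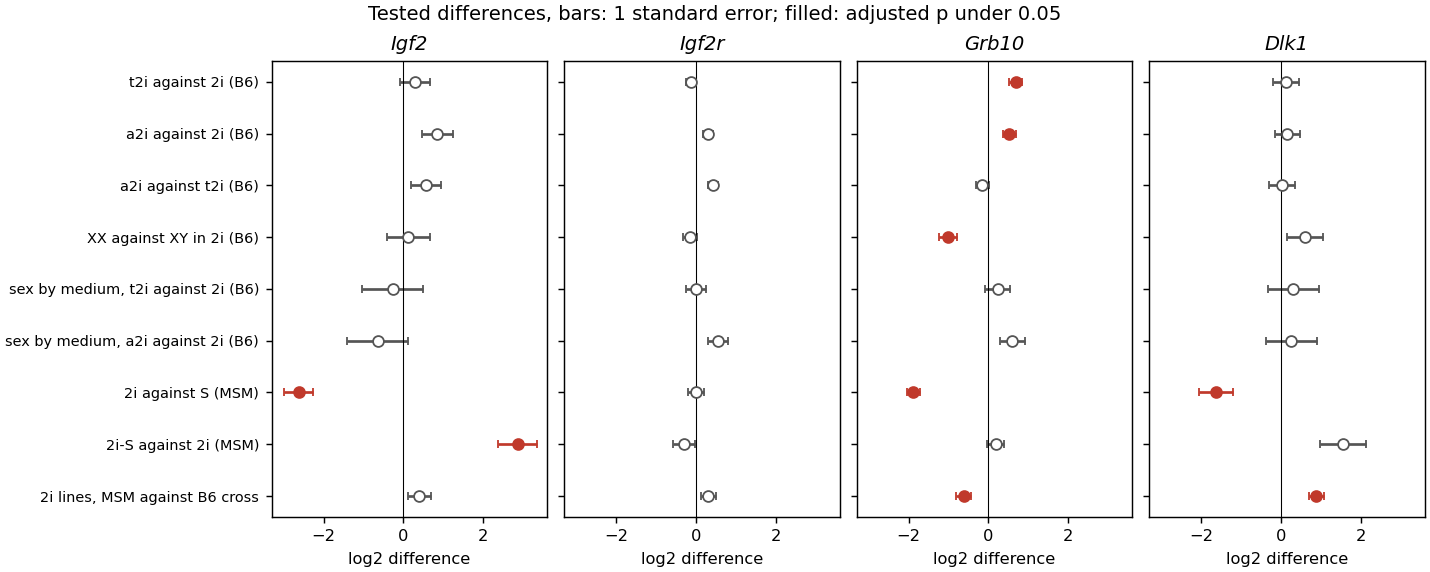
Tested log2 differences of each gene, the first-named group minus the second, with 1 SE as bars; filled red points passed an adjusted p under 0.05 over all genes of the fit. Grb10 passed in 5 of the 9 comparisons, Igf2 in 2, Dlk1 in 2 and Igf2r in none.

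Between the sexes, B6 lines differed in Grb10 and were apart in Dlk1, in opposite directions. In 2i, Grb10 read 16.5 and 19.9 RPKM in XX lines, against 45.9 and 30.6 RPKM in XY lines. The XX lines were lower with no overlap, by -1.01 (SE 0.22, adjusted p = 0.00551 in limma, 2 lines a sex), in a comparison where 25.1% of genes passed. Leaving out XY line c2 gave -0.72 with an adjusted p of 0.0674. Grb7 was also lower, at 3.45 RPKM in XX and 13.9 RPKM in XY, and of its list of 30 genes 3 were lower and 4 higher in XX. In the other media, where sex was not tested on its own, XX lines were also below XY lines: 30.7 to 35.2 RPKM in XX against 38.4 to 50.7 RPKM in XY in a2i, 29.0 to 35.8 RPKM in XX against 54.4 to 57.6 RPKM in XY in t2i, and 35.7 to 49.6 RPKM in XX against 66.5 to 88.1 RPKM in XY in serum. The MSM 2i lines had the same order, with 15.7 and 14.4 RPKM in XX and 20.1 and 17.2 RPKM in XY. In t2i and a2i minus 2i, the medium difference in XX minus that in XY was 0.23 (adjusted p = 0.811) and 0.59 (adjusted p = 0.298) for Grb10.

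Dlk1 in 2i read 1.25 and 0.711 RPKM in XX lines, against 0.230 and 0.336 RPKM in XY lines. The sexes did not overlap, but the difference of 0.61 (95% interval -0.36 to 1.59, adjusted p = 0.355) did not pass at these low levels. Over the 12 serum-free B6 libraries XX lines ran from 0.711 to 2.09 RPKM with a median of 1.22 RPKM, and XY lines from 0.0962 to 0.452 RPKM with a median of 0.283 RPKM. The MSM 2i lines again had XX (3.13 and 3.99 RPKM) above XY (0.756 and 1.06 RPKM), whereas in B6 serum the sexes overlapped. Igf2 and Igf2r did not separate the sexes in B6 2i: Igf2 averaged 0.5 RPKM in XX and 0.416 RPKM in XY, and Igf2r 12.9 RPKM in XX and 14.2 RPKM in XY. In a2i the ranges did not overlap, but those of Igf2 almost met, at 0.936 to 1.40 RPKM in XX against 1.42 to 3.00 RPKM in XY. Igf2r in a2i stood at 19.1 to 19.9 RPKM in XX against 13.7 to 15.3 RPKM in XY. The sex by medium difference of Igf2r, 0.54 (adjusted p = 0.226 in limma), did not pass. The share of all genes whose sexes were apart, with 2 lines a sex, was not counted in any medium. None of the 4 genes passed a sex by medium test, where 1.26% of genes did for t2i and 4.93% for a2i.

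**Figure D5:**
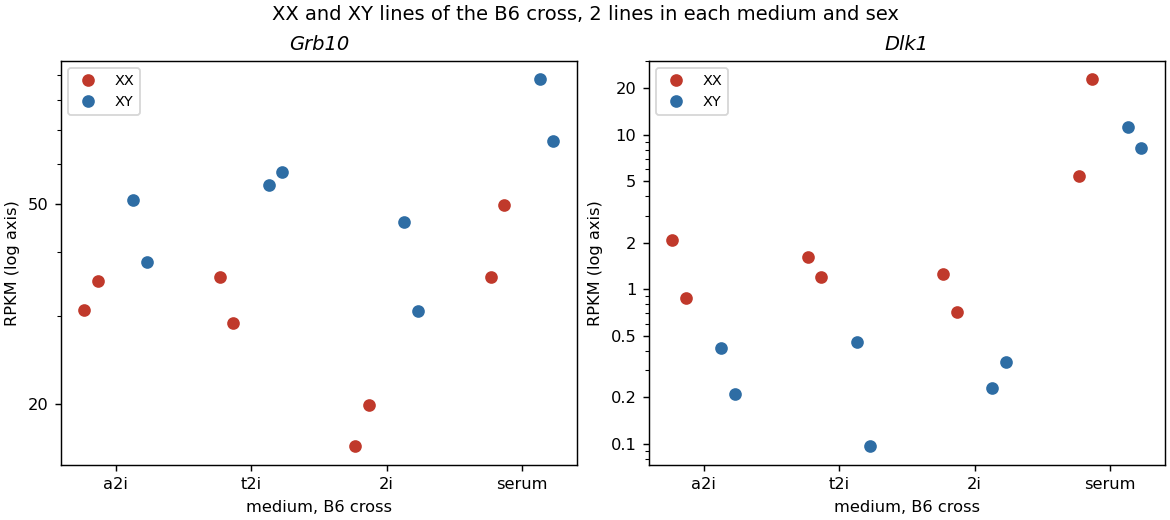
Grb10 and Dlk1 in RPKM (log axis) in XX (red) and XY (blue) B6 lines, with 2 lines for each medium and sex. XX lines lie below XY lines for Grb10 in all 4 media and above them for Dlk1 in a2i, t2i and 2i.

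In the MSM cross, where the S lines held less fibroblast RNA, Igf2, Grb10 and Dlk1 were lower in 2i than in S and Igf2r was not. Igf2 read 0.484, 0.0972, 2.36 and 1.3 RPKM in 2i lines 15, 2, 20 and 23, against 7.34 and 15.3 RPKM in S lines 8 and 12. Every 2i line lay below both S lines, and Igf2 fell by 2.63 (SE 0.36, adjusted p = 0.00369 in limma). How many of all genes lay apart in this way was not counted. Grb10, at 14.4 to 20.1 RPKM in 2i against 59.4 and 69.3 RPKM in S, fell by 1.88 (SE 0.15, adjusted p = 0.00095). Dlk1, at 0.756 to 3.99 RPKM in 2i against 6.09 and 10.6 RPKM in S, fell by 1.63 (SE 0.42, adjusted p = 0.0346). Igf2r, at 12.0 to 20.7 RPKM in 2i against 16.7 and 17.1 RPKM in S, differed by -0.01 (95% interval -0.47 to 0.46, adjusted p = 0.991). Thus 3 of the 4 genes passed, where 17.0% of 13443 genes did. As S is also serum, and levels in serum entered the choice of the genes, these p-values are not independent of that choice. The XX and XY lines were balanced in both media.

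The fibroblast level was 0.0286%, 0.0578%, 0.775% and 0.0592% of the MEF mean in 2i lines 15, 2, 20 and 23, against 0.611% and 1.78% in S lines 8 and 12. With that level subtracted, an alternative added after the data were seen, Grb10 fell by 1.86 and Igf2 fell by 2.16, both still called, and Dlk1 was at -1.65 with an adjusted p of 0.0525. The share ascribed to fibroblasts was 3.37 of 7.34 RPKM of Igf2 in line 8 and 9.80 of 15.3 RPKM in line 12. For Grb10 it was 1.21 of 59.4 RPKM and 3.53 of 69.3 RPKM. The Igf2 remainder in lines 8 and 12 was 2.55 and 2.18 RPKM with MEF 2 as the profile. With MEF 4 it was 5.42 and 8.60 RPKM, and the call was not tested with either profile. Dlk1 alone turned on single lines: without S line 12 its difference was -0.64 (adjusted p = 0.342), and without 2i lines 15, 20 or 23 its adjusted p was 0.0544 to 0.0865. Of the partner lists, 4 of 32 IGF and insulin signalling genes were lower in 2i and 1 was higher, and 3 of 9 Notch genes were lower. Of 11 IGF binding genes 2 were higher and 1 was lower, and the 8 lysosomal sorting genes, at -0.85 to 0.33, had no call. Over all genes 1166 were lower and 1124 higher in 2i. Grb7 averaged 5.09 RPKM in 2i and 23.6 RPKM in S, and fell by 2.18 (adjusted p = 0.00563). Jag2, a Notch ligand gene, averaged 2.73 RPKM in 2i and 8.61 RPKM in S. Among the imprinted growth list 8 of 18 were lower and 3 higher, with Cdkn1c at 2.03 RPKM in 2i and 72.5 RPKM in S.

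Moving 2i line 15 to serum gave a library, 2i-S, in which Igf2 was higher and Grb10 was not. Igf2 read 8.44 RPKM in 2i-S, against 0.0972 to 2.36 RPKM in the 4 2i lines, and 0.484 RPKM in the 2i library of line 15 itself. It rose by 2.86 (SE 0.49, adjusted p = 0.0469 in limma, the lone library being assumed to vary like the others), and it was the only one of the 4 to pass, where 1.22% of genes did. The call was lost when 2i line 15, 2, 20 or 23 was left out (2.69 to 3.00, adjusted p of 0.0666 to 0.1). Of the fibroblast markers 6 of 24 were called higher in 2i-S. The fibroblast level of 2i-S was 1.56%, and 1.53% of the Igf2 MEF mean was measured there. With the level subtracted, 2i-S minus 2i for Igf2 was -0.19. That value turned on the MEF profile. The Igf2 remainder in 2i-S was -0.164 RPKM with the MEF mean, -4.78 RPKM with MEF 2 and 3.44 RPKM with MEF 4. Dlk1 read 9.71 RPKM in 2i-S, at 12.1% of its MEF mean, against 0.756 to 3.99 RPKM in 2i, a difference of 1.57 (95% interval 0.24 to 2.89, adjusted p = 0.23) that was 1.44 with the level subtracted. Grb10 read 17.4 RPKM in 2i-S, inside the 2i range and below the 59.4 and 69.3 RPKM of lines derived in S, with 2i-S minus 2i at 0.19 (95% interval -0.30 to 0.67). Igf2r read 14.4 RPKM in 2i-S, also inside the 2i range.

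Between crosses, the 2i lines differed in Grb10 and Dlk1. Grb10 was lower in the MSM lines, 14.4 to 20.1 RPKM, than in the B6 lines, 16.5 to 45.9 RPKM, by -0.62 (SE 0.19, adjusted p = 0.0498 in limma with a sex term), with overlap from the B6 XX lines. Dlk1 was higher in MSM lines, 0.756 to 3.99 RPKM, than in B6 lines, 0.230 to 1.25 RPKM, by 0.89 (SE 0.19, adjusted p = 0.0142). Igf2 and Igf2r did not pass, so 2 of the 4 genes were called, where 17.3% of 12339 genes were. The Grb10 call was lost when MSM line 2, 20 or 23 or B6 line c2, c4 or c6 was left out (-0.66 to -0.43, adjusted p up to 0.129), and the Dlk1 call with the fibroblast level subtracted (0.73, adjusted p = 0.0803), the level of MSM line 20 being the highest of the 2i lines. Reads of the MSM/Ms copy are matched to a C57BL6 reference, and the part of that in these differences was not tested. All 196 Y-linked and mitochondrial loci lacked any level in the MSM-cross libraries, as given above. Strain and processing cannot be told apart in this comparison.

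The genes whose pattern was most like each of the 4 were found by Pearson correlation of log2(RPKM + 1) over the 26 libraries, which share crosses, media and fibroblast RNA. The fibroblast and serum levels among them entered the choice of the 4 genes, so likeness between the 4 is no independent result. For Igf2 they were Ccl2 (r = 0.965), Fosl1 (0.958), Fgf7 (0.957), Ccl7 (0.953) and Tm4sf1 (0.950). The cytokine gene Ccl2 stood at 374 RPKM in MEF, 37.2 RPKM in the 2i MEF and 47.3 RPKM in B6 serum, and at no more than 0.203 RPKM in the 2i groups. For Dlk1 they were Sh3bp5 (0.949), Prickle1 (0.941), Slco3a1 (0.940), Flnc (0.937) and Mxd4 (0.936), with Igf2 at 0.902. Igf2r and Grb10 had no near match: each was among the other's closest (r = 0.777), Ptk2b led for Grb10 (0.804), and Dock9 followed Grb10 for Igf2r (0.769). Within the 12 serum-free B6 libraries the nearest to Grb10 were Gm10644 (0.961), Txnrd3 (0.955) and Zfp36l1 (0.953), and the nearest to Dlk1 were Ncoa7 (0.942), Dsel (0.936) and Ubqln2 (0.934). There Igf2 lay nearest to Nenf (0.903), and Grb10 and Dlk1 ran against each other (r = -0.551). In these 12 libraries the 4 genes were close to none of one another, the highest positive r among them being 0.310 between Igf2 and Igf2r. Between Igf2r and Grb10 it was 0.063.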

How the data were processed

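RNA-seq libraries of 23 ESC and 3 fibroblast samples were analysed, and the 62 bisulfite samples were not analysed here. The authors deposited gene-level RPKM, from libraries made with a stranded mRNA kit, per the labels. The submitters' processing notes name TopHat2 2.1.0, Cufflinks 2.2.1, cutadapt 1.9.1, Bowtie2 2.2.5 and mm10, without saying which step each served. A pseudocount of 1 RPKM was added before log2, and a gene entered a fit if 2 or more of its libraries reached 1 RPKM. Models were fitted with limma 3.58.1 (R 4.3.3; trended eBayes) with Benjamini-Hochberg adjustment over all genes of a fit, called under 0.05, and were tested on simulated data. The B6 fit held 16 libraries and 8 medium by sex means, the MSM fit 10 libraries with 1 mean per culture group and an XX term, and the cross fit 8 libraries. Fibroblast levels used the 23 of 24 fibroblast genes with a MEF mean of at least 10 RPKM. Other genes were named by rule: up to 4 called genes of a list and comparison with the largest difference, imprinted neighbours reaching 1 RPKM, and the 5 or 3 nearest patterns. The members and lists were chosen with earlier results of these data known. Alternatives were another pseudocount, no filter, quantile normalization, fits of only the groups compared, fibroblast subtraction and leaving out each library. Tables were handled in Python 3.11.15 with pandas 2.3.3. Some results of genes that the rule would name are not reported here.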

Additional observations from a re-analysis of the deposited data

How the results depend on the processing

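The 2i MEF stood below MEF for all 4 genes under every alternative run. The genes were chosen on this contrast and their 2i MEF values lay below both MEFs. The sign was thus all but fixed in advance and is no support. With a pseudocount of 0.1 RPKM, 2i minus serum was -6.71 for Igf2 and -4.06 for Dlk1, MEF minus 2i ESC was 5.84 for Dlk1, 2i MEF minus MEF was -5.04 for Igf2r, and 836 genes were lower in the 2i MEF. With no filter on low values 4 calls were lost: Grb10 in a2i against 2i (0.53, adjusted p = 0.0754 in limma), Dlk1 in 2i against S (-1.63, 0.0885), Igf2 in 2i-S against 2i (2.86, 0.0964) and Grb10 in MSM against B6 (-0.62, 0.0914). With quantile normalization Dlk1 in a2i minus t2i was -0.038, Grb10 in MSM minus B6 -0.63 (0.0523) and Dio3 in 2i minus serum 0.24. Fitting only the groups compared gave 0.85 (0.0343) for Igf2 and 0.53 (0.0602) for Grb10 in a2i against 2i, 2.89 (0.0529) for Igf2 in 2i-S against 2i, 23 calls in a2i against t2i, 230 in sex by a2i and 3 in 2i-S against 2i.

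The fibroblast subtraction gave 2i minus serum of -1.10 for Igf2, -0.23 for Igf2r, -0.29 for Grb10 and -0.71 for Dlk1. With MEF 2 as the profile these were -0.52, -0.28, -0.28 and -0.26, and with MEF 4 -3.04, -0.26, -0.43 and -1.11. Further subtractions, added after the data were seen, gave 2i minus S of 0.043 for Igf2r and -1.65 (0.0525) for Dlk1; 2i-S minus 2i of -0.19 for Igf2 and -0.072 for Grb10, with 81 calls; and MSM minus B6 of 0.73 (0.0803) for Dlk1.

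Leaving out 1 library at a time gave these ranges. In 2i against S: 662 to 2257 calls, Dlk1 -2.61 to -0.64, Igf2r -0.18 to 0.17. In MSM against B6: 1114 to 2570 calls, Grb10 -0.74 to -0.43. In 2i-S against 2i: 0 to 106 calls, Igf2 2.69 to 3.00. In XX against XY: 1965 to 2332 calls, Grb10 -1.29 to -0.72, Igf2 -0.22 to 0.46, Igf2r -0.38 to 0.10. In a2i against 2i: Grb10 0.38 to 0.67, Igf2r 0.19 to 0.43, Dlk1 -0.018 to 0.34. In a2i against t2i: 17 to 196 calls, Dlk1 -0.15 to 0.21. In sex by a2i: 161 to 497 calls, Dlk1 -0.10 to 0.62. In sex by t2i: 46 to 123 calls, Grb10 -0.058 to 0.51, Igf2 -0.73 to 0.19, Igf2r -0.25 to 0.23. In t2i against 2i: 569 to 904 calls, Grb10 0.54 to 0.82.

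No paired analysis was possible because the groups compared share fewer than 2 line labels. Leaving out the lone 2i-S or 2i MEF library gives no value, and Igf2 and Dlk1 missed the filter when the B6 2i libraries were fitted alone.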
